A study of Rattus norvegicus with 11 samples.

Results

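Myocd, Srf, Gata5, Tbx20, Tbx18, Alx1, Foxs1, Myrf, Gli1 and Gli2 are transcription regulators of the bladder's smooth muscle and the connective tissue around it. These 10 genes, of 18507 in the table, were chosen by symbol with the obstructed against normal values of both weeks already known, so their levels and fold changes in these contrasts are given as a description and without a test. The measurements are RNA-seq expression values (FPKM, fragments counted per length of transcript and per depth of the library, a level corrected for gene length) of bulk bladder tissue from Sprague-Dawley rats. Per the study's methods the rats were females about 6 months old, and partial bladder outlet obstruction (PBOO) was made with a suture tied around the neck of the bladder and the urethra, while control rats, called normal in the labels, had the abdominal incision alone. Bladders were taken at week 4 (3 PBOO and 3 normal samples) and at week 5 (2 PBOO and 3 normal samples). All week 4 columns are named as Input, while those of the week 5 controls are named as adult samples and those of the week 5 PBOO samples as DO.

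Smooth muscle identity is built by serum response factor (SRF), a DNA-binding protein that sits on CArG boxes of muscle and growth response genes, and by myocardin, a coactivator that binds SRF and turns on contractile genes. In the bladder the urothelium releases Sonic hedgehog, and the stromal and muscle cells beneath it answer through the receptor Patched, the transducer Smoothened and the GLI transcription factors. GATA, T-box, forkhead and homeobox factors give mesenchymal cells their position and fate.

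Promoter sequence is shown for 3 of the genes in which the site of SRF or of a GLI factor was found close to the gene start. Promoters came from RefSeq (build GRCr8), and 5 of the 10 genes had a single promoter under their symbol (Srf, Tbx20, Tbx18, Alx1 and Gli2). Genes with several promoters or none under their symbol were not read. A CArG box (CC, then A or T at each of the middle positions, then GG) was present in 1.64% of all 33469 promoters of the same length. This share and those below also count the promoters of genes that have several. Of the 5 promoters only that of Srf held one, and it held a pair, printed in capitals in the upstream stretch chr9:21923951-21924060 (plus strand).
Srf: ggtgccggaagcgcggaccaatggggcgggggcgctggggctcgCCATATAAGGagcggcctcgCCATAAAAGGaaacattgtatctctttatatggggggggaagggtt
Egr2, an immediate early gene that SRF is known to control, carried 1 CArG box in the stretch chr20:21054487-21054566 (minus strand), also in capitals. Of 9 immediate early promoters read, Egr1 and Egr2 held a CArG box, and of 16 promoters of contractile genes 0 did, within the short windows read.
Egr2: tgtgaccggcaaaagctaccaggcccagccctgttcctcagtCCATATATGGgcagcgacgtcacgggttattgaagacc
The GLI site GACCACCCA, read on both strands, was present in 0.385% of all promoters, and of 18 Hedgehog pathway promoters only that of Ptch1, the receptor gene that GLI factors switch on, held it. It lies on the opposite strand to the gene within chr17:1555371-1555450, where the printed plus strand shows its reverse complement TGGGTGGTC in capitals.
Ptch1: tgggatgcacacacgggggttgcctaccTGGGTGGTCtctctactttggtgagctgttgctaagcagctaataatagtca
None of the 5 promoters held the GLI site, the T-box site TCACACCT (1.1% of all promoters) or the GATA site AGATAA (11.6%), which says only that these letters are not in the windows read.

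Some libraries stood apart. The summed FPKM of 7 smooth muscle markers (Acta2, Myh11, Cnn1, Tagln, Des, Actg2 and Smtn) was 989 to 1849 in the PBOO week 5 samples and 24539 to 28875 in the normal week 5 samples, a mean 18.9-fold lower. The 7 fibroblast markers were 12.2-fold lower in these PBOO samples (119 to 171 against 1509 to 1897), the 6 leukocyte markers were 8.55-fold higher (183 to 651 against 27.8 to 71.6), and the sum of the 8 urothelial markers overlapped (5999 to 6829 against 5851 to 7120). Within that sum single urothelial markers moved both ways, with 2 of 8 higher and 4 lower without overlap. Of all genes, 35.3% were higher and 25% lower without overlap at week 5. The basal keratin Krt5 was 13.6-fold higher and the uroplakin Upk2 was 5.25-fold lower. The surface keratin Krt20 had means of 66.9 FPKM in normal and 0.661 in PBOO samples. None of the 7 smooth muscle or 7 fibroblast markers was at 0 in the mean of any group. At week 4 the smooth muscle markers were 2.48-fold higher in PBOO samples (50654 to 81975 against 25296 to 27377) and the urothelial markers were 1.69-fold lower. Normal week 4 replicate 1 had the lowest fibroblast sum of its week (1072). The other normal week 4 samples were at 3978.5 and 4043, within the PBOO range of 3695 to 4424. Its leukocyte sum was also the lowest of the week (55.1, against 320 and 368 in the other normal samples). PBOO week 4 replicate 3 had the highest striated muscle sum (3070). Most of that sum was Acta1 (2741). In the same sample Tnnt3 (169) was above its normal week 4 range (17.8 to 50.2) and Ckm (57.4) within it (50.8 to 63.0). In bulk tissue fewer cells of a type and less RNA per cell cannot be told apart, and the part of these shifts in the levels below was not tested.

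**Figure D1:**
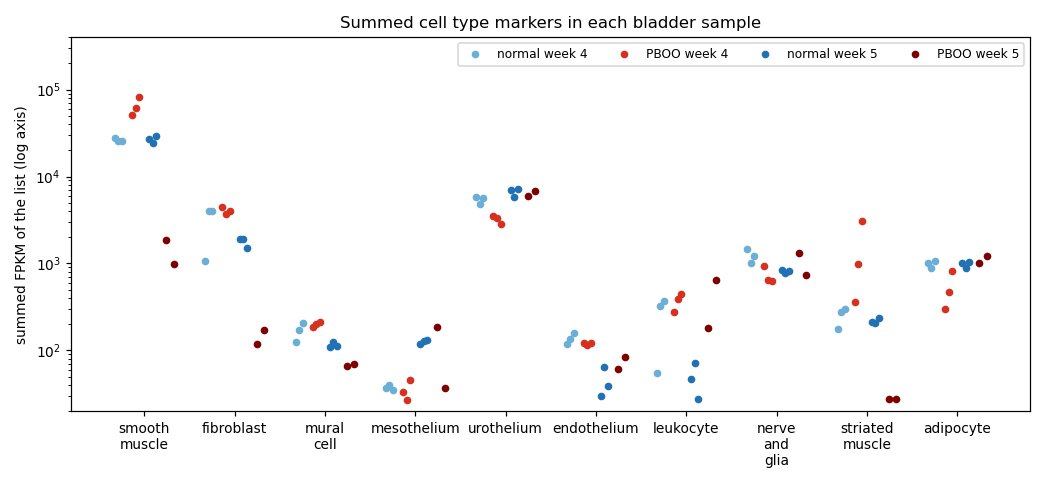
Summed FPKM of each cell type marker list (horizontal axis) in every sample, on a log axis, with 1 point per sample coloured by group. The PBOO week 5 samples sit far below all others for smooth muscle (989 to 1849) and for fibroblasts (119 to 171) and among the normal week 5 samples for the urothelial sum, whose single genes moved both ways.

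Week 4 values are read against a general shift. Over the 11320 genes tested, the median log2 fold change was -0.25, and scaling the samples by median ratios moved that median to -0.01. At week 5 the median of 13685 genes was 0.12. With limma at an unadjusted p under 0.05, 5.76% of genes were higher and 26.2% lower in PBOO samples at week 4, and 24.6% were higher and 18.8% lower at week 5. The week 4 split depended on scaling: 652 genes were higher and 2969 lower in the values as deposited, and 1320 were higher and 1020 lower after median-ratio scaling. At an adjusted p under 0.05 (Benjamini-Hochberg), the shares were 0.336% higher and 0.177% lower at week 4, and 15.5% higher and 14.5% lower at week 5. Groups did not overlap for 6.63% of genes higher and 34.9% lower at week 4, and for 35.3% higher and 25% lower at week 5. Among the 10 transcription factors, groups did not overlap for 2 higher and 3 lower genes at week 4 and for 10 lower genes at week 5, a count that the choice of the genes fixed.

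**Figure D2:**
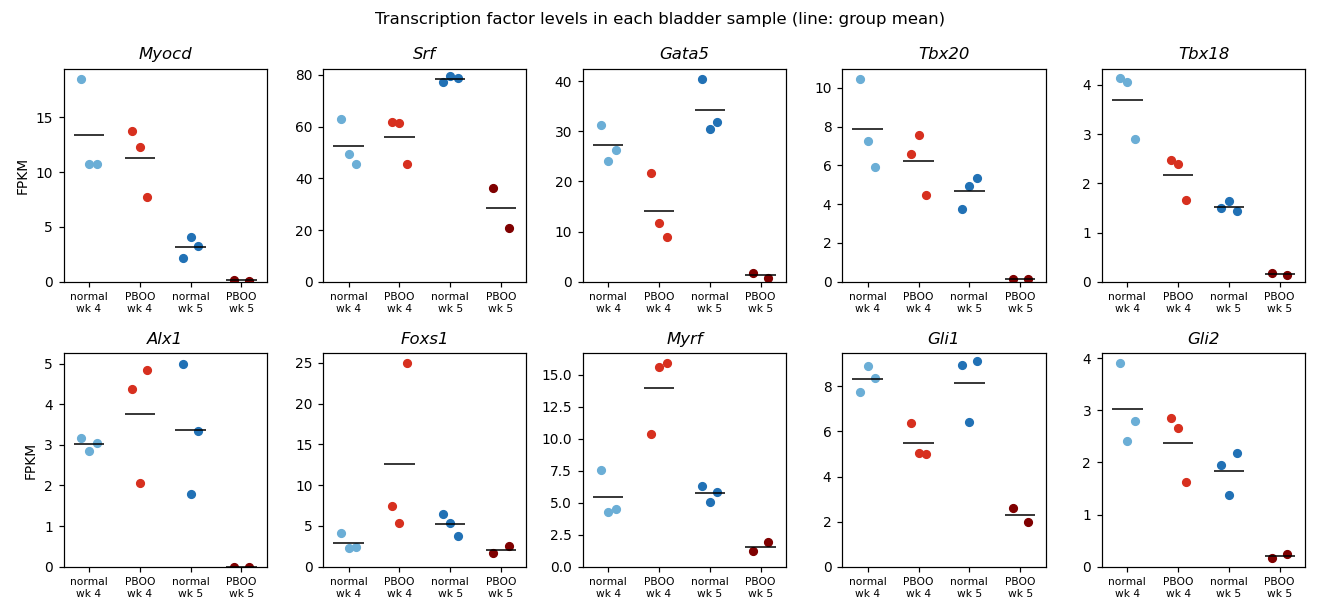
FPKM of the 10 transcription factors in each sample, with 1 panel per gene, 1 point per sample and a line at the mean of each group; the vertical axes start at 0 and differ between panels. All PBOO week 5 points lie below the normal week 5 points, while at week 4 Foxs1 and Myrf are higher, Gata5, Tbx18 and Gli1 lower, and the other 5 genes overlap.

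Srf and its coactivator Myocd parted in level. Srf was at 63.0, 49.5 and 45.5 FPKM in the normal week 4 samples and at 61.6, 61.2 and 45.6 FPKM in the PBOO week 4 samples. The groups overlapped almost completely, with a log2 fold change of 0.09 (SE 0.17). At week 5 Srf was at 77.4, 79.5 and 78.7 FPKM in normal samples and at 36.1 and 20.7 FPKM in PBOO samples. Both PBOO values were far below the narrow normal range, and the mean was 2.77-fold lower (log2 fold change -1.52, SE 0.24). Srf had the highest mean of the 10 genes in every group. In normal week 4 samples the ranges of Srf, Gata5, Myocd and Gli1 followed each other without overlap, and below them Gli1 and Tbx20, Tbx20 and Myrf, and the last 4 genes (Tbx18, Gli2, Alx1 and Foxs1) overlapped with their neighbours. In PBOO week 5 samples Srf again stood alone, Gli1, Foxs1, Myrf and Gata5 overlapped in turn, and Gli2, Tbx18, Tbx20 and Myocd formed a low group with means from 0.119 to 0.202 FPKM.

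Myocd was at 18.5, 10.8 and 10.8 FPKM in normal week 4 samples and at 13.8, 12.3 and 7.73 FPKM in PBOO week 4 samples. These groups overlapped (log2 fold change -0.24, SE 0.29), and the sign turned to 0.01 after median-ratio or quantile scaling. At week 5 Myocd was at 2.17, 4.10 and 3.25 FPKM in normal samples and at 0.135 and 0.103 FPKM in PBOO samples. The PBOO values were close to the bottom of the scale and the mean was 26.7-fold lower, with a log2 fold change of -3.86 (SE 0.37) on the log2(FPKM + 0.1) scale, which understates the change of a gene this low. The ratio of Srf to Myocd FPKM was 26.4 ± 8.31 (SD, n = 3) in normal and 234 ± 48.0 (SD, n = 2) in PBOO week 5 samples, so the transcript of the coactivator was lower by more than that of the DNA-binding partner. At week 4 the ratio was 4.07 ± 0.607 in normal and 5.12 ± 0.727 in PBOO samples (SD, n = 3 each), with overlapping ranges of 3.40 to 4.59 and 4.47 to 5.90.

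The contractile genes that this pair is known to drive moved in opposite directions at the 2 times. Of 20 such genes tested at week 4, 16 were higher in PBOO samples and 0 lower at an unadjusted p under 0.05 (limma), 3 of them at an adjusted p under 0.05, and the median log2 fold change was 0.87; with other scalings 14 to 18 were higher, and with no filter on low values 7 were. At week 5 all 22 tested were lower, all at an adjusted p under 0.05, with a median of -4.16. Of all genes, 5.76% were higher at week 4 and 18.8% lower at week 5 at an unadjusted p under 0.05. This list holds the smooth muscle markers summed above, so both describe the same RNA. The adjusted week 4 calls over all lists of partners, targets and relatives (3 higher, 1 lower) became 0 in each direction without PBOO replicate 2 or 3 or normal replicate 2 or 3, and 18 higher and 23 lower without PBOO replicate 1.

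Actg2, the enteric smooth muscle actin, rose from 4421 ± 359 to 22070 ± 6970 FPKM at week 4 (SD, n = 3 each; log2 fold change 2.27, SE 0.28, limma adjusted p = 0.0483) and fell at week 5 by 3.90 on the log2 scale (SE 0.24, adjusted p = 0.000461). The calponin Cnn1, an actin-binding brake on contraction, had log2 fold changes of 1.89 at week 4 and -4.25 at week 5. Desmin (Des), the muscle intermediate filament, had values of 1.88 and -4.01. The smooth muscle actin Acta2 showed a smaller week 4 difference (0.56, unadjusted p = 0.0266, adjusted p = 0.118), and so did the smooth muscle myosin heavy chain Myh11 (0.45, unadjusted p = 0.026, adjusted p = 0.117). At week 5 both fell, by 4.72 and 4.69 on the log2 scale. The largest falls of the list at week 5 were in the filament linker Synm (-5.90), the actin organizer Synpo2 (-5.70) and the myosin kinase Mylk (-5.21). Thus at week 4 contractile transcripts were higher beside Srf and Myocd values that overlapped between groups.

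The immediate early targets, genes that SRF turns on within minutes of a stimulus together with ternary complex factors, did not follow the contractile ones. At week 4, 5 of 9 tested were lower in PBOO samples and 0 higher (1 at adjusted p), and 3 were lower without PBOO replicate 1. The lower share was 55.6%, beside 26.2% of all genes. Junb, an AP-1 subunit, was at 146, 153 and 160 FPKM in normal and at 69.0, 77.2 and 77.5 FPKM in PBOO samples, which is tight in both groups (log2 fold change -1.04, SE 0.10, limma adjusted p = 0.0478). The related AP-1 subunits Fosb (-2.12) and Fos (-2.04) had unadjusted p-values of 0.0192 and 0.00752, and their adjusted p-values were 0.106 and 0.0791. At week 5, 2 of 11 were higher and 1 lower at an unadjusted p under 0.05 and 0 at an adjusted p. The shares of 18.2% and 9.09% lay below the 24.6% and 18.8% of all genes. Junb (1.08, unadjusted p = 0.0189) and the survival gene Mcl1 (0.46, unadjusted p = 0.0339) were higher, and the matricellular gene Ccn2 was lower (-2.90, unadjusted p = 0.0309). These calls rested on single samples: without PBOO replicate 1 none was left in either direction, and without normal replicate 3, or with a replicate block, 5 were lower. Normal week 5 replicate 3 stood apart for these genes, with Fos at 20.9 FPKM against 205 and 333 in the other normal samples, Egr1 at 12.3 against 331 and 577, and Ccn1 at 21.3 against 548 and 655. Egr2, whose CArG box is printed above, was at a mean of 0.854 FPKM in normal and 0.797 in PBOO week 5 samples, with overlapping groups.

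**Figure D3:**
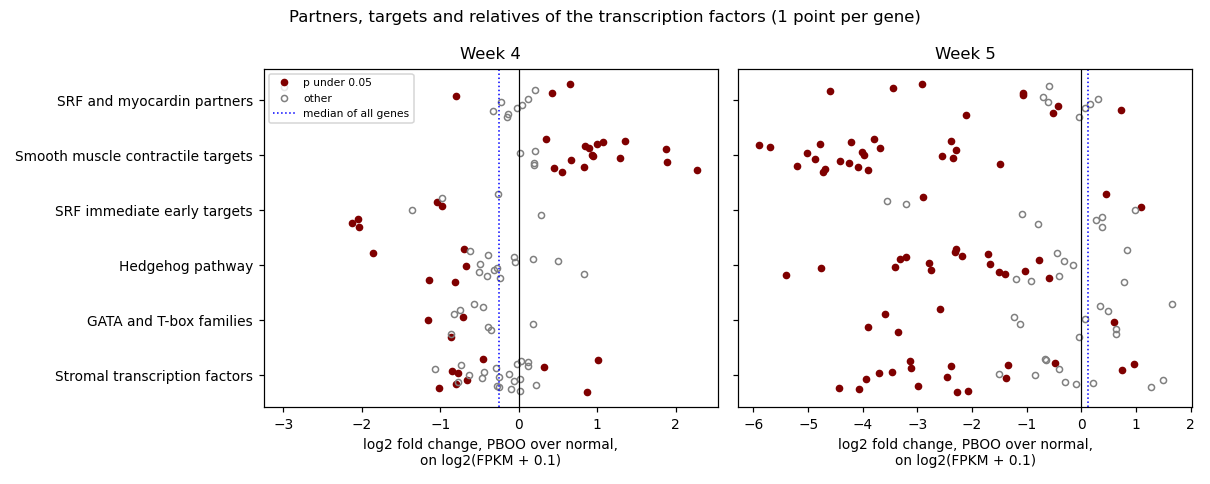
Log2 fold change of each partner, target or relative (1 point per gene) in PBOO over normal samples at week 4 and week 5; filled points have an unadjusted p under 0.05 in limma and the dotted line is the median of all genes (-0.25 and 0.12). Contractile targets lie to the right of 0 at week 4 (median 0.87) and to the left at week 5 (median -4.16), and immediate early targets lie mostly to the left at week 4 (median -1.04).

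The partners of SRF and myocardin include coactivators, ternary complex factors, repressors and adaptors. At week 4, 2 of 12 tested were higher and 1 lower at an unadjusted p (0 at adjusted p), and at week 5 1 of 16 was higher and 8 lower (1 and 7 at adjusted p). The week 4 shares were 16.7% higher and 8.33% lower, beside 5.76% and 26.2% of all genes. At week 5 the shares were 6.25% higher and 50% lower, beside 24.6% and 18.8% of all genes. The week 4 count of higher partners was 5 after median-ratio scaling and 1 with no filter, with a replicate block, or without PBOO replicate 2 or 3 or normal replicate 2 or 3, and that of lower partners was 2 with the block or without PBOO replicate 1 or 3 or normal replicate 1. Prkg1, the cGMP-dependent kinase, and Csrp1, a LIM adaptor, were higher at week 4 (0.66 and 0.42, unadjusted p = 0.00931 and 0.0316) and fell at week 5 (-2.92 and -3.45). The size of the Prkg1 fall is uncertain, since Prkg1 was at 0.0703 and 0 FPKM in the PBOO week 5 samples. Prdm6, a repressor in smooth muscle, was listed at 0 in all week 4 samples and fell from a mean of 42.2 to 1.84 FPKM at week 5 (log2 fold change -4.60, SE 0.40, limma adjusted p = 0.00126). Hopx, a homeodomain protein that restrains SRF, was lower at both times (-0.81, unadjusted p = 0.00216, and -1.08, adjusted p = 0.0236).

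Not all SRF partners were lower at week 5. Mrtfa, the myocardin-related coactivator that answers to actin, was at 6.07, 6.37 and 6.07 FPKM in normal and at 6.70 and 5.31 FPKM in PBOO week 5 samples, a log2 fold change of -0.05 (SE 0.16, adjusted p = 0.843). The ternary complex factor Elk3 rose (0.73, SE 0.14, adjusted p = 0.0132). Over all lists 4 genes rose at week 5 at an adjusted p (Elk3, Tbx2, Foxc1 and Nr2f2), and this count became 0 without normal replicate 1 or 3. Klf4, a repressor of contractile genes, overlapped at both times (-0.23 at week 4 and -0.69 at week 5, adjusted p = 0.691 and 0.326). Every week 4 sample lists Mrtfa and Mrtfb at 0, and Mrtfb was at most 0.28 FPKM at week 5, so neither could be followed at week 4.

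Gata5, a zinc finger factor of mesodermal and endodermal development, was the second most abundant of the 10 genes in 3 of the 4 groups. It was at 31.3, 24.1 and 26.2 FPKM in normal and at 21.8, 11.8 and 8.96 FPKM in PBOO week 4 samples. All 3 PBOO values were below the normal ones but spread widely (log2 fold change -1.03, SE 0.31; -0.78 after median-ratio scaling). At week 5 the normal samples were at 40.5, 30.5 and 31.7 FPKM and the PBOO samples at 1.78 and 0.741 FPKM, 27.2-fold lower in the mean (log2 fold change -4.76, SE 0.36). Its relative Gata6 overlapped at week 4 (-0.36, unadjusted p = 0.118) and fell at week 5 from 10.5 to 0.946 FPKM (log2 fold change -3.36, adjusted p = 0.000657). Zfpm2, a cofactor of GATA proteins, fell by 3.90 on the log2 scale at week 5 (adjusted p = 0.00184), while Gata4 was at most 0.743 FPKM in any sample and was not tested.

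Tbx20, a T-box factor known for its role in heart muscle, was at 10.5, 7.26 and 5.91 FPKM in normal and at 6.60, 7.59 and 4.47 FPKM in PBOO week 4 samples, and the groups overlapped (log2 fold change -0.33, SE 0.28). At week 5 the normal samples were at 3.77, 4.93 and 5.36 FPKM and the PBOO samples at 0.125 and 0.154 FPKM. The mean was 33.6-fold lower (log2 fold change -4.31, SE 0.28), the largest mean ratio of the 9 genes with a value above 0.

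Tbx18, a T-box factor of the urinary tract mesenchyme and of mural cells, was at 4.13, 4.06 and 2.91 FPKM in normal and at 2.47, 2.40 and 1.67 FPKM in PBOO week 4 samples. All PBOO values were below the lowest normal one (log2 fold change -0.74, SE 0.25). At week 5 it was at 1.49, 1.65 and 1.43 FPKM in normal and at 0.171 and 0.145 FPKM in PBOO samples, 9.65-fold lower (log2 fold change -2.65, SE 0.33). The ratio of Tbx20 to Tbx18 FPKM was 3.09 ± 0.612 in normal (SD, n = 3) and 0.896 ± 0.237 in PBOO week 5 samples (SD, n = 2), and the ranges of 2.53 to 3.74 and 0.729 to 1.06 did not overlap. Both genes were near the bottom of the scale in the PBOO week 5 samples (Tbx20 at 0.125 and 0.154 FPKM). Their ratio there is therefore uncertain, and a change of balance is not concluded.

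Other GATA and T-box genes showed both directions, and their week 4 share of lower genes (27.3%) was near that of all genes (26.2%). Of 11 tested at week 4, 3 were lower and 0 higher at an unadjusted p (0 at adjusted p); 7 were lower without PBOO replicate 1 and 1 without PBOO replicate 2 or 3 or normal replicate 1 or 2, and after median-ratio scaling 1 was higher and 1 lower. Tbx1 had the largest of these decreases with separated groups (-1.15, SE 0.19, unadjusted p = 0.000547, adjusted p = 0.0538). Of 14 tested at week 5, 1 was higher and 4 were lower at an adjusted p under 0.05, beside 15.5% and 14.5% of all genes. Tbx5 fell (-3.59), as did Gata6 and Zfpm2, whereas Tbx2 rose from 86.3 ± 4.61 to 132 ± 21.6 FPKM (log2 fold change 0.60, SE 0.14, adjusted p = 0.0292).

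Alx1, a homeobox factor of craniofacial and limb mesenchyme, was at 3.16, 2.85 and 3.05 FPKM in normal and at 4.37, 2.06 and 4.83 FPKM in PBOO week 4 samples. The PBOO values lay on both sides of the normal ones (log2 fold change 0.22, SE 0.33), and without PBOO week 4 replicate 3 the value was -0.0044. At week 5 it was at 5.00, 1.78 and 3.34 FPKM in normal samples and was listed at 0 in both PBOO samples, so no fold change is given.

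Other stromal transcription factors, among them homeobox, forkhead and bHLH genes, were lower at week 5 in 15 of 27 tested and higher in 2 (13 and 2 at adjusted p). The unadjusted shares were 55.6% lower and 7.41% higher, beside 18.8% and 24.6% of all genes. The homeobox gene Pitx1 (-4.06) and the bHLH factor Twist1 (-3.94) fell, while the forkhead factor Foxc1 (0.97, adjusted p = 0.0144) and the nuclear receptor Nr2f2 (0.74, adjusted p = 0.0121) rose. At week 4, 3 of 29 were higher and 6 lower at an unadjusted p and 0 at an adjusted p. The shares were 10.3% higher and 20.7% lower, beside 5.76% and 26.2% of all genes. The Notch target Heyl (1.01), the mesenchymal homeobox gene Prrx1 (0.86) and Zeb1 (0.32) were higher, and Osr1 (-0.85) and Msx2 (-0.79) were lower, with adjusted p-values from 0.0553 to 0.143; without PBOO replicate 1, 10 were lower. Wt1, a mesothelial and stromal factor, had a mean of 0.928 FPKM in normal and 1.02 in PBOO week 4 samples and was at most a trace at week 5.

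Foxs1 and Myrf were the genes of the 10 with higher values in PBOO samples at week 4. Foxs1, a forkhead factor known from pericytes and vascular mural cells, was at 4.17, 2.24 and 2.36 FPKM in normal and at 7.50, 5.30 and 25.0 FPKM in PBOO week 4 samples. PBOO replicate 3 was more than 3 times as high as the other PBOO samples, and the log2 fold change of 1.80 (SE 0.57) was 1.14 without it. At week 5 Foxs1 was at 6.41, 5.36 and 3.81 FPKM in normal and at 1.68 and 2.50 FPKM in PBOO samples, all of the latter below the former, with a log2 fold change of -1.27 (SE 0.30).

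Myrf, a membrane-bound factor known for myelin gene control and also present in mesenchyme, was at 7.57, 4.30 and 4.51 FPKM in normal and at 10.4, 15.6 and 15.9 FPKM in PBOO week 4 samples. All 3 PBOO values exceeded the highest normal value, and the mean was 2.56-fold higher (log2 fold change 1.36, SE 0.27; 1.26 to 1.62 without PBOO replicate 3 or normal replicate 1). At week 5 Myrf was at 6.31, 5.09 and 5.84 FPKM in normal and at 1.19 and 1.96 FPKM in PBOO samples, 3.65-fold lower (log2 fold change -1.84, SE 0.26). The 8 mural cell markers summed to 126 to 204 FPKM in normal and 188 to 215 FPKM in PBOO week 4 samples, which overlapped. At week 5 the sums were 109 to 125 and 66.8 to 70.0 FPKM. Single markers differed from the sum. At week 4, 2 of 8 were higher without overlap, beside 6.63% of all genes. These were Cspg4 and Pdgfrb (log2 fold changes 1.04 and 0.56, limma adjusted p = 0.0554 and 0.0553). At week 5, 4 of 8 were lower without overlap, beside 25% of all genes, and the others overlapped. The 7 nerve and glia markers were 1.68-fold lower in PBOO samples at week 4.

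**Figure D4:**
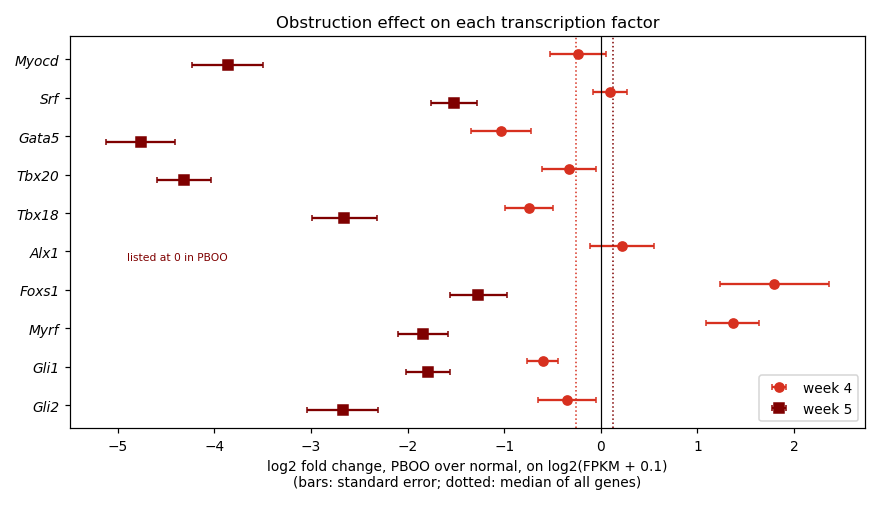
Log2 fold change of each of the 10 transcription factors in PBOO over normal samples on the log2(FPKM + 0.1) scale at week 4 (circles) and week 5 (squares), with standard errors as bars and dotted lines at the median of all genes (-0.25 and 0.12). Week 5 values run from -1.27 (Foxs1) to -4.76 (Gata5), Alx1 has none because it was listed at 0, and week 4 values run from -1.03 (Gata5) to 1.80 (Foxs1).

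Gli1, the GLI factor that is itself a target of Hedgehog signalling, was at 7.74, 8.90 and 8.38 FPKM in normal and at 6.39, 5.06 and 5.02 FPKM in PBOO week 4 samples. The PBOO values lay below the normal ones with little spread (log2 fold change -0.60, SE 0.16; -0.35 after median-ratio scaling). At week 5 it was at 8.96, 6.42 and 9.10 FPKM in normal and at 2.59 and 1.98 FPKM in PBOO samples, 3.57-fold lower (log2 fold change -1.79, SE 0.23).

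Gli2, the GLI activator that acts first on the signal, was at 3.90, 2.41 and 2.79 FPKM in normal and at 2.85, 2.66 and 1.62 FPKM in PBOO week 4 samples, which overlapped (log2 fold change -0.35, SE 0.30). At week 5 it was at 1.95, 1.38 and 2.18 FPKM in normal and at 0.157 and 0.246 FPKM in PBOO samples, 9.09-fold lower (log2 fold change -2.67, SE 0.37). Gli3, the repressor of the family, was at 2.35, 2.71 and 2.69 FPKM in normal and 3.42, 4.63 and 3.14 FPKM in PBOO week 4 samples (log2 fold change 0.50, unadjusted p = 0.0552). At week 5 Gli3 had means of 0.718 and 0.0311 FPKM, under the minimum mean of 0.5 FPKM for a test. Gli1 exceeded Gli2 in every group, by a ratio of 4.48 ± 0.258 in normal (SD, n = 3) and 12.2 ± 5.93 in PBOO week 5 samples (SD, n = 2). Gli2 was near the bottom of the scale in the latter samples, so the size of that ratio is uncertain.

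The rest of the Hedgehog pathway was tested with limma in 18 of 28 genes at week 4 and in 25 at week 5, since 10 were listed at 0 in every week 4 sample. At week 4, 5 genes were lower and 0 higher at an unadjusted p and 0 at an adjusted p, and 1 was lower without PBOO replicate 3. The lower share of 27.8% was near the 26.2% of all genes. After median-ratio scaling 2 were higher and 1 lower, so no common direction is given for week 4. At week 5, 17 were lower (15 at adjusted p) and 0 higher, with a median log2 fold change of -1.50. The lower share was 68%, while of all genes 18.8% were lower and 24.6% higher. By role, 0 of 3 ligands, 2 of 3 ligand release genes, 6 of 6 receptor genes, 4 of 6 intracellular genes and 5 of 7 stromal targets were lower at an unadjusted p at week 5.

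The ligand Shh was at 55.4, 37.9 and 38.5 FPKM in normal and at 38.3, 21.0 and 18.4 FPKM in PBOO week 4 samples (log2 fold change -0.81, SE 0.29, unadjusted p = 0.0273, adjusted p = 0.119). At week 5 it was at 106, 120 and 72.2 FPKM in normal and at 272 and 103 FPKM in PBOO samples, which overlapped (log2 fold change 0.78, SE 0.44, adjusted p = 0.231). The difference of its effects between weeks was 1.60 (SE 0.57, adjusted p = 0.0446). Shh passed no test at week 5, while its receptor Ptch1 fell from 7.44 to 2.76 FPKM (log2 fold change -1.40, SE 0.17, adjusted p = 0.00357), and the transducer Smo fell from 22.5 to 8.06 FPKM (-1.50, adjusted p = 0.00689). Ptch1 and Smo overlapped at week 4 (-0.51 and -0.27, adjusted p = 0.324 and 0.425).

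Steeper falls at week 5 were seen in Scube2, which helps to release the ligand (-5.41, adjusted p = 0.000519), in the coreceptor Gas1 (-4.77, adjusted p = 0.000267) and in Hhip, a decoy receptor and GLI target (-3.42, adjusted p = 0.00214). Foxf1, a stromal forkhead target of the pathway, fell from a mean of 38.5 to 4.08 FPKM (-3.21, SE 0.13, adjusted p = 0.000187). Scube2, Gas1 and Foxf1 were listed at 0 in all week 4 samples. Wnt2b was lower at both times, by 1.86 on the log2 scale at week 4 (unadjusted p = 0.00189, adjusted p = 0.0559) and by 2.32 at week 5 (adjusted p = 0.0217).

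The effects at the 2 times were also set side by side for 9 of the 10 genes, leaving out Alx1, which was listed at 0 in PBOO week 5 samples. The weeks also differ in column names and in the genes listed at 0. Time and sample processing therefore cannot be told apart in these differences. The week 5 effect minus the week 4 effect was -1.18 (SE 0.28) for Gli1, -1.61 (SE 0.31) for Srf, -1.91 (SE 0.37) for Tbx18 and -2.32 (SE 0.46) for Gli2. It was -3.06 (SE 0.75) for Foxs1, -3.20 (SE 0.40) for Myrf, -3.62 (SE 0.46) for Myocd, -3.73 (SE 0.52) for Gata5 and -3.98 (SE 0.40) for Tbx20. For all genes in both fits, 27.4% had a higher and 13.5% a lower effect at week 5 at an adjusted p under 0.05. Of 93 companion genes with this test, 9 were higher and 44 lower at week 5 at an adjusted p, and of the 20 contractile targets 19 were lower.

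The week 5 ratios of normal to PBOO means can be read beside those of the marker sums, which were 18.9 for smooth muscle and 12.2 for fibroblasts. The ratio was 33.6 for Tbx20, 27.2 for Gata5 and 26.7 for Myocd, all above the smooth muscle ratio. It was 9.65 for Tbx18, 9.09 for Gli2, 3.65 for Myrf, 3.57 for Gli1, 2.77 for Srf and 2.49 for Foxs1, all below the fibroblast ratio. Single markers spread around these sums, from 14.6 (Actg2) to 25.2 (Myh11) for smooth muscle and from 2.28 (Pdgfra) to 17.7 (Col1a2) for fibroblasts. Of the other contractile genes Mylk was at 34.3 and Tpm1 at 4.94. A place above or below a sum therefore does not set a gene apart from single muscle and fibroblast genes. Per 1000 FPKM of summed smooth muscle markers, Myocd had means of 0.120 in normal and 0.0885 in PBOO week 5 samples with overlapping ranges. Tbx20 had 0.176 and 0.112, also overlapping, Gata5 had 1.28 and 0.856 without overlap, and Srf had 2.95 and 20.2. Dividing by a marker sum shifts every gene of a sample alike and both come from the same bulk libraries, so this scale adds no comparison between the genes.

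Replicates of a group differed in ways that several genes shared. Normal week 4 replicate 1, with the low fibroblast sum, had the highest value of its group for 9 of the 10 genes. PBOO week 4 replicate 3, with the high striated muscle sum that was mostly Acta1, had the lowest value for 7 and the highest for the other 3 (Alx1, Foxs1 and Myrf). The PBOO week 5 samples split, with replicate 1 higher for 5 genes and replicate 2 higher for 4.

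Across all 11 samples, centred on the mean of their week, the nearest genes by Pearson correlation of log2(FPKM + 0.1) are given as a description, since samples of the same obstruction group and library share their cell makeup. The gene nearest to Myocd was Tbx20 (r = 0.990), and the nearest to Gata5 was Syt9 (r = 0.998). Srf was closest to Gna12 (r = 0.989), Tbx20 to Pde2a (r = 0.994), Tbx18 to Ncald (r = 0.991), Gli2 to Htr1d (r = 0.991), Gli1 to Phb (r = 0.982), Alx1 to Scarf2 (r = 0.980) and Myrf to the adrenergic receptor Adra1d (r = 0.974). Correlations this high were common: 488 of 9969 genes reached 0.9 with Myocd and 296 with Gli1. Foxs1 was the exception, with 7 such genes, led by the integrin Itga5 (r = 0.931).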

How the data were processed

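The authors deposited 1 table of FPKM for 18507 genes in 11 columns, and 0 columns could not be matched to a sample. Per the study's methods, trimmed paired reads were mapped with HISAT2, assembled with StringTie and counted with featureCounts. The submitters' processing notes name mm10, a mouse build, for these rat samples, and the annotation and strand of counting were not given in the sources used here. FPKM keeps no read number, so depth is unknown and the study's DESeq2 test could not be run; the columns sum to 424961 to 564343 FPKM. In all samples of week 4, 4871 genes are listed at 0, against 403 in week 5, so levels are not compared between weeks. Each control is of its own week, and the study describes its replicates as biological, while the labels do not tie samples to animals.

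Each week was fitted apart with limma 3.58.1 (R 4.3.3; lmFit, eBayes with trend) on log2(FPKM + 0.1), keeping genes whose mean over the compared samples reached 0.5 FPKM. The difference between weeks was an interaction over 11 samples. Calls used an unadjusted p under 0.05, with Benjamini-Hochberg adjusted counts beside them; the fit was tested on simulated data. The 10 transcription factors, the 6 lists of partners, targets and relatives and the 10 marker lists were chosen with earlier results of these data known. Genes named from the lists are a fixed set (Acta2, Myh11, Cnn1, Mrtfa, Mrtfb, Klf4, Ptch1, Hhip, Smo, Shh, Gli3, Gata4, Gata6, Foxf1 and Wt1) and, per list and week, up to 3 genes per direction with the largest log2 fold change among those with an unadjusted p under 0.05 and groups that do not overlap. Egr1, Egr2, Ccn1, Tpm1 and the urothelial, fibroblast, mural cell and striated muscle markers were named after their values were seen. For correlations, genes needed a mean of 1 FPKM or more in each week. Promoters (RefSeq, GRCr8) were matched by symbol, and symbols with several promoters were left out. Expression values of 5 list symbols were found under older names. Replicate numbers were not taken as pairs. Alternatives were other pseudocounts, filters, scalings, no trend, a replicate block and leaving out each sample. Protein sequences were not used here. 1 gene that the naming rule selects is not reported here.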

Additional observations from a re-analysis of the deposited data

Results flagged for a closer look

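Foxs1 and Myrf were higher in every PBOO sample than in every normal sample at week 4 and lower in every PBOO sample at week 5. The week 5 effect minus the week 4 effect was -3.06 for Foxs1 and -3.20 for Myrf on the log2 scale, and this difference was not tested, since both genes were chosen with these contrasts known.

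Among the partners, targets and relatives named above, 27 genes had effects that differed between weeks in the interaction test of limma at an adjusted p under 0.05. Apart from the fixed set, these genes were named for large fold changes within a week in the same samples. Such a choice favours a difference between weeks, so their number is only a description. Of all 93 companion genes tested, 9 were higher and 44 lower at week 5, beside 27.4% and 13.5% of all genes. The values that follow are the week 5 effect minus the week 4 effect, in which time and the processing of each week's samples cannot be told apart. Contractile targets were all lower at week 5, with Synm at -6.98, Synpo2 at -6.69, Actg2 at -6.17, Cnn1 at -6.14, Des at -5.89, Mylk at -5.41, Acta2 at -5.28 and Myh11 at -5.14. SRF partners were lower for Csrp1 (-3.87) and Prkg1 (-3.58) and higher for Elk3 (0.88). Of the immediate early targets, Junb (2.12) and Mcl1 (0.72) were higher. In the Hedgehog pathway Hhip (-2.93) and Smo (-1.23) were lower and Shh (1.60) was higher.

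GATA and T-box relatives were lower for Zfpm2 (-4.08), Tbx5 (-3.13) and Gata6 (-3.01) and higher for Tbx2 (1.31). Stromal factors were lower for Pitx1 (-3.97), Twist1 (-3.28), Prrx1 (-3.14), Zeb1 (-2.71) and Heyl (-1.66) and higher for Foxc1 (1.71) and Nr2f2 (1.18). The smooth muscle marker sum, which holds Actg2, Cnn1, Des, Acta2 and Myh11, was 2.48-fold higher at week 4 and 18.9-fold lower at week 5. Elk3, Junb, Mcl1, Shh, Tbx2, Foxc1 and Nr2f2 went the other way. The part of this sum in the differences was not tested.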

How the results depend on the processing

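At week 5 all 10 transcription factors stayed lower in PBOO samples under every alternative run (Tbx18 dropped out at a mean of at least 1 FPKM), though low genes moved with the pseudocount (Myocd from -1.87 at pseudocount 1 to -4.59 at 0.01). Some named relatives also had wide week 5 ranges over the alternatives. These were Prkg1 (-4.99 to -0.88), Zfpm2 (-5.38 to -1.52), Scube2 (-6.68 to -2.83) and Twist1 (-4.81 to -2.15). At week 4 the direction turned for Myocd (0.0126 with median-ratio scaling, 0.0144 with quantile normalization), and, without 1 sample, for Myocd (range -0.40 to 0.0221), Srf (-0.0059 to 0.24) and Alx1 (-0.0044 to 0.59); among named relatives it turned for Klf4 (0.0243 with median-ratio scaling, -0.6144 to 0.0994 without 1 sample), Wt1 (-0.2358 to 0.6438 without 1 sample) and, at week 5, Mrtfa (-0.2135 to 0.1182 without 1 sample). The cause was not tested.

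Week 4 counts depended on the settings. Against 652 genes higher, median-ratio scaling gave 1320 and quantile normalization 1193; against 2969 lower, they gave 1020 and 1312, and equal column sums 1589. At adjusted p, 38 higher became 62 (equal sums), 0 (no trend), 0 (median-ratio), 1 (no filter) and 96 (quantile), and 20 lower became 11 (equal sums), 0 (no trend), 46 (mean of at least 1 FPKM), 0 (median-ratio), 2 (no filter) and 52 (pseudocount 1). Companion genes higher went from 21 to 11 without the filter, and at adjusted p from 3 to 0 (no trend, median-ratio and no filter) and 10 (quantile); those lower went from 20 to 10 (median-ratio), 10 (no filter) and 13 (quantile), and at adjusted p from 1 to 0 (no trend, median-ratio and no filter), 2 (pseudocount 1) and 2 (quantile). For the difference between weeks, 12 companion genes higher became 7 with median-ratio scaling, and 9 at adjusted p became 5 (equal sums), 5 (median-ratio) and 5 (quantile).

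Without 1 sample the ranges at week 4 were 418 to 825 genes higher (0 to 468 adjusted) and 1804 to 3945 lower (0 to 1658), with companions at 16 to 22 higher (0 to 18) and 12 to 29 lower (0 to 23); the highest adjusted counts came without PBOO replicate 1. At week 5 they were 2304 to 4144 higher (768 to 3174) and 2016 to 3188 lower (1079 to 2619), with companions at 5 to 14 higher (0 to 10) and 61 to 69 lower (50 to 64), and for the difference between weeks 9 to 15 higher (5 to 14) and 43 to 49 lower (39 to 46). Leaving out a PBOO week 5 sample assumes that the lone one varies like the normal samples.

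Same-numbered samples deviated together with r from -0.024 to 0.232 at week 4 and of -0.00081 and 0.124 at week 5, so the numbers were not taken as pairing. With a replicate block, companions at week 4 were 17 higher (1 at adjusted p) and 31 lower (2 at adjusted p), and at week 5 higher genes at adjusted p went from 2117 to 1141 and higher companions from 4 to 0. FPKM without read numbers limits what can be said of genes near 0.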
